A study of Mus musculus with 24 samples.

Results

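The 10 genes described here belong to the circadian clock: the period genes Per1, Per2 and Per3, the cryptochrome genes Cry1 and Cry2, the REV-ERB genes Nr1d1 and Nr1d2, the activator gene Clock, and the output genes Dbp and Tef. They are 10 of the 56941 genes listed, each found once by its symbol, and all 10 passed the filter on low counts that kept 13315 genes. They were chosen from measured values of these same samples, so their differences between conditions are given as descriptions without a test. Clock is the exception to a grouping of repressors and output genes, since it encodes an activator.

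C2C12 cells are mouse myoblasts of an established line, which form contracting myotubes once moved to medium with horse serum. All conditions used cells carrying ChR2::tdTomato, a cation channel opened by blue light and tagged with a red fluorescent protein. The 4 conditions were an unstimulated control and daily optical stimulation at 1, 4 and 10 Hz for 60 min, with 6 biological replicates each, or 24 libraries. The controls expressed the channel and also twitched spontaneously, and every well had its medium changed shortly before exercise, by the study's methods. The design has a single time of collection, so a gene's level and the phase of its rhythm cannot be told apart, and the hour of collection after the last medium change or stimulation is not given in the sources used here. Total estimated counts per library were 8052369 to 18159144.

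In the textbook clock, CLOCK and BMAL1 bind E-box sequences and switch on the Per and Cry genes, whose proteins then enter the nucleus and shut CLOCK and BMAL1 down. In a second loop the REV-ERB proteins, encoded by Nr1d1 and Nr1d2, repress Bmal1 and other genes through elements that the ROR proteins use for activation. DBP and TEF bind D-box sequences and carry the rhythm to output genes. Skeletal muscle has such a clock, and cultured muscle cells can be synchronised by serum, glucocorticoids or electrical pacing.

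The stretches before the transcription start show which of these elements lie close to each gene. They were read from the GRCm39 genome, upstream of the start of the canonical GENCODE M39 transcript, and each is written 5′ to 3′ along the gene, with the matched element in capitals. Both strands of the 300 bases before the start were searched for the E-box CACGTG, the E-prime box CACGTT, the D-box TTANGTAA, the ROR half-site AGGTCA and the cyclic AMP element TGACGTCA. The E-prime matches below read AACGTG, which is the same element on the other strand. The first 3 stretches hold the E-box and E-prime matches of a period, a cryptochrome and a REV-ERB gene.
Per1, chr11:68989178-68989267, plus strand: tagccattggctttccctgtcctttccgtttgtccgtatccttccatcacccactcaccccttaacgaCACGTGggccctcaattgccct
Cry1, chr10:85020970-85020999, minus strand: gaAACGTGaggtgccggtggtCACGTGggg
Nr1d1, chr11:98666190-98666279, minus strand: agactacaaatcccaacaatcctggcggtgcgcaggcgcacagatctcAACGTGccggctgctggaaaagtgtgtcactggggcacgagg
The next 2 stretches hold the D-box matches of the other period genes.
Per2, chr1:91387127-91387216, minus strand: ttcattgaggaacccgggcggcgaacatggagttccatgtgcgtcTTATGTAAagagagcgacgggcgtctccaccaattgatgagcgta
Per3, chr4:151129261-151129350, minus strand: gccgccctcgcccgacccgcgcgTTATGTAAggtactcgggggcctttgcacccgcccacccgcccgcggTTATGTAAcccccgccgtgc
The last 2 hold the ROR half-sites of Nr1d2 and Dbp.
Nr1d2, chr14:4230455-4230544, plus strand: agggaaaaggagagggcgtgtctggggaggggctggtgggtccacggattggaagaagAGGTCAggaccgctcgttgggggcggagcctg
Dbp, chr7:45354312-45354341, plus strand: ttggccaaatatAGGTCAgtgtcccgcctt
The E-box of Per1 lay 22 to 17 bases before the start, that of Cry1 29 to 24 bases before it, and the E-prime box of Nr1d1 72 to 67 bases before it. Tef held an E-box 138 to 133 bases before its start and Cry2 an E-prime box 106 to 101 bases before its start. The 2 D-boxes of Per3 were identical in their 8 letters to that of Per2. The window of Clock held none of the 5 elements. Among 13300 promoters of tested genes, 8.50% held the E-box, 6.11% the E-prime box, 2.02% the D-box, 13.7% the ROR half-site and 2.08% the cyclic AMP element. The Cry1 stretch lies in an exon of another annotated Cry1 transcript, and that of Dbp in an exon of Car11, so only 30 bases of each are shown. A match describes letters and not binding, and binding was not measured.

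Of the markers fixed for the tissue, all 8 myotube genes passed the filter. They summed to between 9719 and 16932 CPM, counts per 1000000 after TMM scaling, with medians of 12042, 12717, 14126 and 11211 CPM in the control, 1, 4 and 10 Hz libraries. Mylpf, a myosin light chain, was the 1 of these called, rising by 0.57 ± 0.17 (log2) at 4 Hz (edgeR adjusted p = 0.0075). The 5 genes of dividing cells passed the filter and summed to 16.7 to 37.4 CPM in controls and to 23.2 to 44.0, 21.7 to 28.5 and 23.1 to 37.2 CPM under 1, 4 and 10 Hz. Among them Cdk1 rose by 0.62 ± 0.12 at 1 Hz and 0.51 ± 0.13 at 4 Hz (adjusted p = 0.00035 and 0.0015), while Mki67 and Ccnb1 fell at 4 Hz, with -1.15 ± 0.43 and -1.06 ± 0.32 (adjusted p = 0.029 and 0.0081). Of 4 fat cell genes, Adipoq, Plin1 and Cidec did not pass the filter, were at 0 in 20, 21 and 21 of 24 libraries and never exceeded an estimated count of 2. The fourth, Cebpa, a transcription factor also used outside fat cells, was at -0.38 ± 0.10 at 1 Hz (adjusted p = 0.0037, under the threshold on size) and fell at 4 Hz, with -0.52 ± 0.10 (adjusted p = 0.00013). The summed level of the 4 was nearly all Cebpa. It was 26.0 to 32.0 CPM in controls and 19.5 to 24.6, 16.4 to 24.2 and 25.1 to 35.3 CPM under 1, 4 and 10 Hz. All libraries at 1 and 4 Hz lay below every control, as they did for 8.58% and 14.7% of tested genes. Adipoq, Plin1 and Cidec were too close to 0 to show a change in fat cells. In such bulk samples, fewer cells of a type and less RNA per cell cannot be told apart.

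Properties of the libraries also moved with the conditions. The 100 most abundant genes took 20.3 to 22.2% of counts in controls and 21.4 to 27.2%, 23.1 to 29.8% and 20.2 to 23.0% under 1, 4 and 10 Hz, so that the 4 Hz libraries lay above every control. The median gene's TPM, transcripts per 1000000 corrected for length, fell relative to its CPM by up to 0.49 at 1 Hz on the log2 scale. At 4 Hz this difference ran from -0.65 to -0.13, with every library below every control. It was -0.05 to 0.07 in the controls and -0.17 to 0.06 at 10 Hz. It was under -0.4 in replicates 4 and 6 at 1 Hz and in replicate 3 at 4 Hz. Mitochondrial genes took 3.97, 4.87 and 8.90% of counts in these 3 libraries, against at most 2.72% in controls. Replicate 6 at 4 Hz, at -0.26, was not among the 3 but had 4.34%. Values of the 10 genes against control that lost a call or moved by over 1.5 times without the 3 libraries under -0.4 are given further on. The part of the markers and of the library properties in the values of the 10 genes was not tested beyond the settings given there.

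In unstimulated controls the 10 genes differed widely in level, compared per length in TPM (mean ± SD, 6 controls). Tef was at 74.8 ± 7.14 and Per1 at 63.2 ± 4.43, with overlapping libraries. Dbp followed at 37.1 ± 4.00, apart from both neighbours. Cry1 at 24.8 ± 3.23, Clock at 21.2 ± 1.40, Nr1d1 at 17.1 ± 4.17, Nr1d2 at 16.1 ± 2.65 and Cry2 at 15.1 ± 0.687 formed a series in which each overlapped the next. Per2 at 5.12 ± 0.832 and Per3 at 3.89 ± 0.198 were lowest, with no overlap between them or with Cry2. The spread between controls was widest for Nr1d1 and graded among the others. The SD of its CPM was 26.4% of the mean, against 5.29% for Clock and 4.48% for Cry2, which were among the narrowest. Nr1d2, Per2, Cry1 and Dbp lay between.

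Nr1d1, at chr11:98658752-98666188 (GRCm39, minus strand), encodes REV-ERBα, a haem-binding nuclear receptor that represses transcription. Its level ran among controls from 17.5 to 36.3 CPM (median 30.9), under 1 Hz from 27.9 to 102 (median 91.7), under 4 Hz from 51.8 to 172 (median 108) and under 10 Hz from 14.1 to 61.4 (median 27.5). All 6 libraries at 4 Hz and 5 of 6 at 1 Hz were above every control, while replicate 5 at 1 Hz, at 27.9 CPM, lay among the controls. At 10 Hz, replicate 3 at 61.4 and replicate 5 at 47.5 CPM were above the controls and replicate 2 at 14.1 CPM was below them. The log2 fold change against control, with its SE from edgeR, was 1.43 ± 0.36, 1.92 ± 0.36 and 0.19 ± 0.36 under 1, 4 and 10 Hz, or 2.69-fold, 3.79-fold and 1.14-fold. Under 1 and 4 Hz these were the largest differences among the 10 genes, and they had the largest errors.

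Nr1d2, at chr14:4230545-4266624 on the plus strand, encodes REV-ERBβ, which acts on the same elements. It ran among controls from 34.9 to 55.9 CPM (median 45.5), under 1 Hz from 84.5 to 115 (median 94.8), under 4 Hz from 80.7 to 122 (median 94.7) and under 10 Hz from 41.7 to 59.4 (median 54.4). All libraries at 1 and 4 Hz were above every control, and those at 10 Hz overlapped the controls. The log2 fold changes were 1.08 ± 0.12, 1.07 ± 0.12 and 0.17 ± 0.12, and 4 Hz against 1 Hz gave -0.02 ± 0.12, where Nr1d1 gave 0.49 ± 0.34. Its estimated counts were not whole numbers in any of the 24 libraries, which happens when reads are divided between a gene and another sequence, while those of Nr1d1 were whole in all of them.

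Dbp, at chr7:45354512-45359627 on the plus strand, encodes a PAR bZIP activator and is among the most rhythmic transcripts known. It ran among controls from 29.2 to 37.8 CPM (median 32.9), under 1 Hz from 60.9 to 69.0 (median 64.6), under 4 Hz from 61.0 to 94.0 (median 76.6) and under 10 Hz from 35.5 to 42.4 (median 39.6), where 4 of 6 libraries were above every control. The SD at 1 Hz was 4.28% of the mean. Log2 fold changes were 0.98 ± 0.09 at 1 Hz, 1.23 ± 0.09 at 4 Hz and 0.25 ± 0.09 at 10 Hz. Tef, a close relative of Dbp at chr15:81686622-81711064, stayed near its control level, with log2 fold changes of 0.10 ± 0.06, 0.14 ± 0.06 and -0.05 ± 0.06, and its libraries overlapped the controls in every condition (among controls from 169 to 201 CPM (median 178) and under 4 Hz from 183 to 213 (median 202)).

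The period genes encode the proteins that, with the cryptochromes, close the negative loop. Per1, at chr11:68986035-69002300, ran among controls from 133 to 156 CPM (median 146), under 1 Hz from 142 to 224 (median 184), under 4 Hz from 172 to 288 (median 240.4) and under 10 Hz from 141 to 204 (median 178). Every library at 4 Hz was above every control, as were 5 of 6 at 1 Hz and 5 of 6 at 10 Hz. The log2 fold changes were 0.35 ± 0.11, 0.68 ± 0.11 and 0.29 ± 0.11, so that Per1 was the gene of the 10 with the highest difference at 10 Hz. Per3, at chr4:151081373-151129140, ran among controls from 11.5 to 14.6 CPM (median 12.2), under 1 Hz from 13.1 to 18.5 (median 16.6), under 4 Hz from 16.0 to 21.1 (median 18.9) and under 10 Hz from 10.2 to 13.4 (median 11.5). Its log2 fold changes were 0.37 ± 0.09, 0.58 ± 0.09 and -0.10 ± 0.10. Per2, at chr1:91343700-91387069, was the most scattered of the 3 and ran among controls from 15.7 to 23.8 CPM (median 18.4), under 1 Hz from 14.6 to 29.1 (median 23.6), under 4 Hz from 20.4 to 34.1 (median 27.8) and under 10 Hz from 16.7 to 30.3 (median 22.4). The conditions overlapped for Per2 throughout, with log2 fold changes of 0.25 ± 0.16, 0.52 ± 0.16 and 0.27 ± 0.16.

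The cryptochrome genes stood on opposite sides of the control mean at 1 and 4 Hz. Cry1, at chr10:84967560-85021252, ran among controls from 38.4 to 52.9 CPM (median 45.3), under 1 Hz from 26.8 to 55.3 (median 32.9), under 4 Hz from 24.9 to 43.3 (median 30.3) and under 10 Hz from 39.7 to 65.0 (median 46.4). Its log2 fold changes were -0.34 ± 0.15, -0.52 ± 0.15 and 0.10 ± 0.15, and every condition overlapped the controls. Replicate 5 at 1 Hz, at 55.3 CPM, was above every control, and without it the value at 1 Hz was -0.51. Cry2, at chr2:92233894-92264474, ran among controls from 35.8 to 40.0 CPM (median 38.0), under 1 Hz from 41.8 to 47.7 (median 44.4), under 4 Hz from 49.0 to 56.4 (median 53.8) and under 10 Hz from 38.5 to 43.9 (median 41.1). No library at 1 or 4 Hz overlapped the controls, although the log2 fold changes were only 0.23 ± 0.06 and 0.49 ± 0.06, with 0.12 ± 0.06 at 10 Hz.

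Clock, at chr5:76342860-76452846, the DNA-binding partner of BMAL1, was the gene that stood lower in every library at 1 and 4 Hz. It ran among controls from 109 to 127 CPM (median 118), under 1 Hz from 53.2 to 97.2 (median 78.7), under 4 Hz from 51.4 to 92.6 (median 77.0) and under 10 Hz from 79.3 to 136 (median 113). The 10 Hz libraries were split, with replicate 3 at 81.8, replicate 5 at 79.3 and replicate 2 at 104 CPM below the controls and the other 3 at 122 to 136 CPM. The log2 fold changes were -0.62 ± 0.14, -0.64 ± 0.14 and -0.12 ± 0.14.

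**Figure D1:**
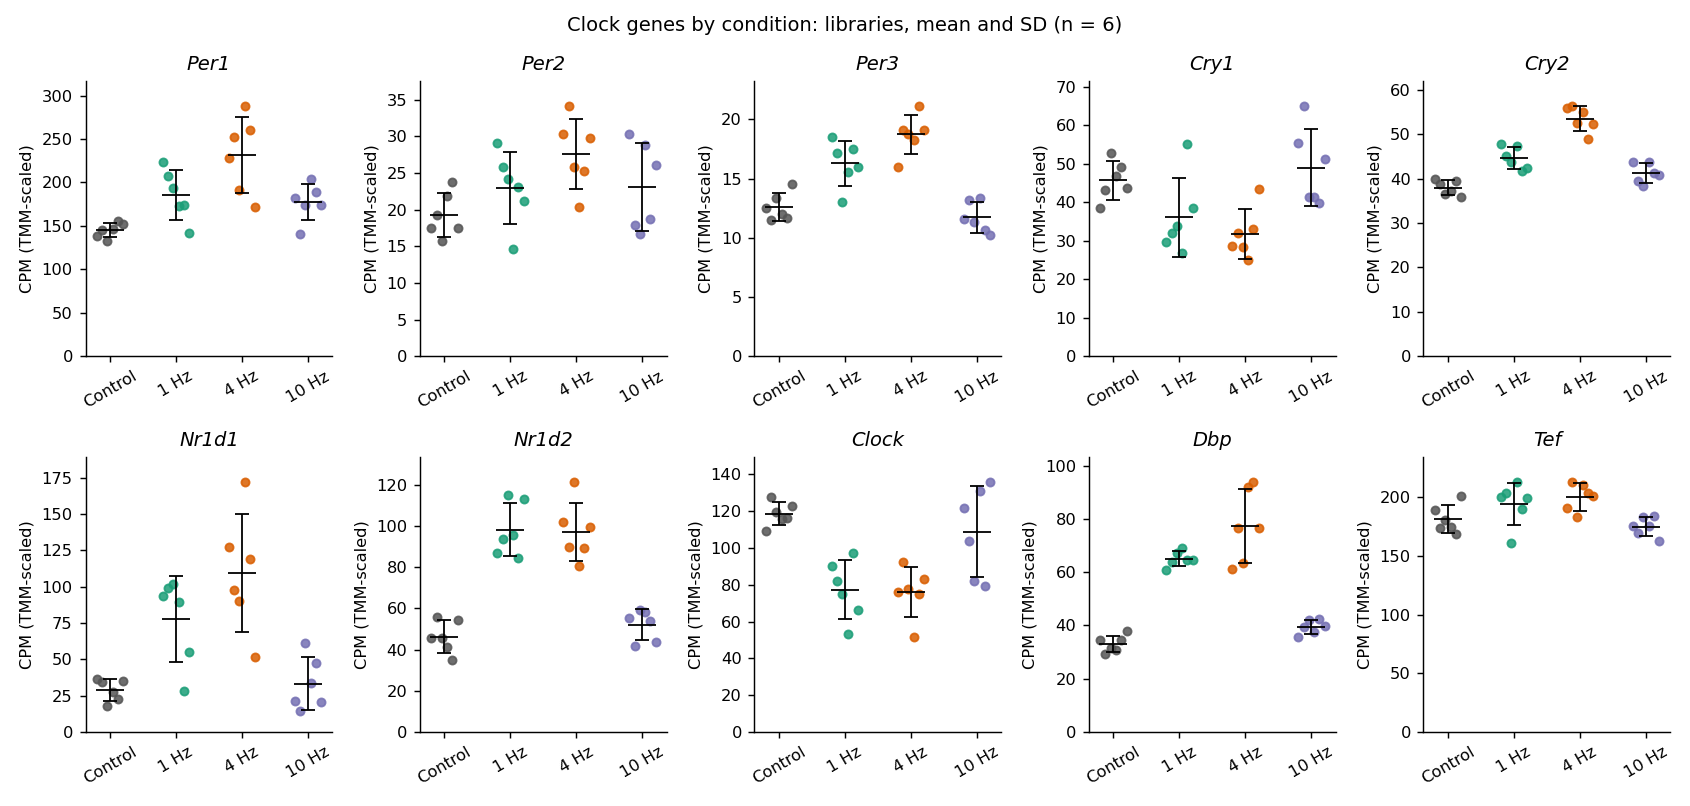
CPM after TMM scaling (vertical axes, linear and starting at 0) of the 10 genes in each library of the 4 conditions (horizontal axes); points are libraries, bars the mean and SD over 6. Nr1d2 and Dbp at 1 and 4 Hz lie above all controls, Clock lies below them, and the 10 Hz libraries overlap the controls for every gene.

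A gene was called changed where the edgeR adjusted p was under 0.05 and the log2 fold change exceeded 0.5 in either direction. For the 10 genes these calls describe the choice and add no evidence, and the share of all tested genes called the same way is given beside each. At 1 Hz, 3 genes were higher (Nr1d1, Nr1d2, Dbp) and 1 was lower (Clock), while 7.19% of tested genes were higher and 7.74% lower. At 4 Hz, 6 genes were higher (Nr1d1, Nr1d2, Dbp, Per1, Per2, Per3) and 2 lower (Clock, Cry1), beside 12.8% and 12.3% of tested genes. Per2 at 0.52 was just past the threshold on size and Cry2 at 0.49 just under it. At 10 Hz, 0 of 10 were called by edgeR or DESeq2, 2 had an unadjusted p under 0.05 (Per1 and Dbp), and 0.0376% of tested genes were called. The median log2 fold change of the 10 genes was 0.30, 0.55 and 0.14 at 1, 4 and 10 Hz, against 0.04, 0.06 and 0.01 over all tested genes.

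Counted by libraries instead, all 6 at 1 Hz lay above every control for 3 genes (Nr1d2, Dbp, Cry2) and below for Clock, beside 5.55% and 8.58% of tested genes. At 4 Hz this held above the controls for 6 genes (Nr1d1, Nr1d2, Dbp, Per1, Per3, Cry2) and below for Clock, beside 12.9% and 14.7%. At 10 Hz it held for 0 genes in either direction, beside 0.774% above and 0.864% below.

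The frequencies were also compared with each other in the same fit, and these comparisons share libraries with those against control. Between 4 and 1 Hz, 0 of 10 genes were called by edgeR or DESeq2, 4 had an unadjusted p under 0.05 (Per1, Per3, Cry2, Dbp), and the share called among all tested genes was 0%. Without the 3 libraries of low TPM, 0.988% of tested genes were called, 133 in place of 0, and still 0 of the 10. The differences ran from -0.18 ± 0.16 for Cry1 to 0.49 ± 0.34 for Nr1d1. Between 10 and 1 Hz, Nr1d1 (-1.24 ± 0.36), Nr1d2 (-0.92 ± 0.12) and Dbp (-0.72 ± 0.09) were lower at 10 Hz and 0 genes were higher, beside 4.99% lower and 5.85% higher. The difference of Clock, 0.497, was just under the threshold on size and passed it under 6 other settings of the fit and on both TPM scales, but not with upper-quartile factors (0.47), without the 3 libraries (0.34) or with the TPM property as a covariate (0.28). With that covariate Nr1d1, at -1.06, was not called either. Between 10 and 4 Hz, Nr1d1 (-1.73 ± 0.36), Nr1d2 (-0.90 ± 0.12), Dbp (-0.98 ± 0.09) and Per3 (-0.68 ± 0.10) were lower and Clock (0.52 ± 0.14) and Cry1 (0.62 ± 0.15) higher, beside 10.6% lower and 10.6% higher. With the covariate Clock (0.15) and Cry1 (0.34) were no longer called, and Per1 (-0.55) and Per2 (-0.59) were. Per3 was not called on log2(TPM + 1) (-0.37) or log2(TPM + 0.1) (-0.45).

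**Figure D2:**
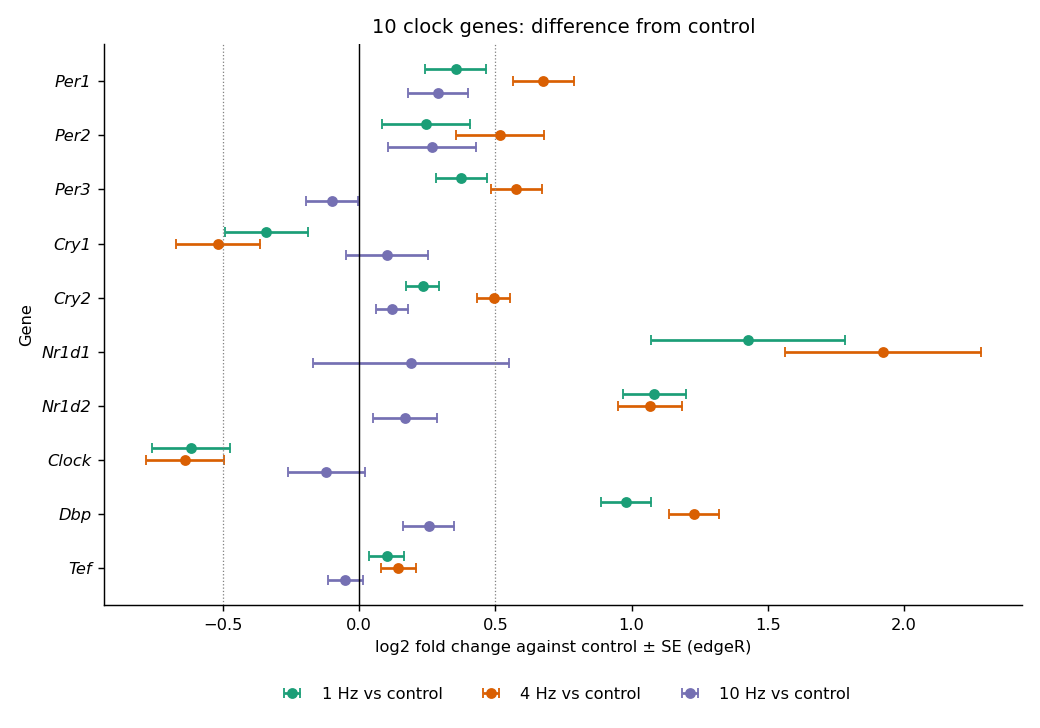
Log2 fold change against control with its SE from edgeR (horizontal axis) for the 10 genes (vertical axis) at 1, 4 and 10 Hz; dotted lines mark 0.5 in each direction. Nr1d1 reaches 1.92 at 4 Hz, Clock falls to -0.64, and the 10 Hz points lie between -0.12 and 0.29.

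The calls of Per1, Per2, Per3 and Clock depended on the TPM scale or on the libraries of low TPM. Among these settings, the call of Cry1 at 4 Hz was lost only with the TPM property as a covariate. On log2(TPM + 1) the median tested gene itself differed by -0.15 at 1 Hz, -0.23 at 4 Hz and -0.01 at 10 Hz. Per1, Per2 and Per3 at 4 Hz then fell short of the threshold, at 0.35, 0.16 and 0.26, and relative to the median gene they were at 0.58, 0.39 and 0.48. Cry2 was at 0.02 ± 0.10 at 1 Hz and 0.16 ± 0.10 at 4 Hz on this scale, so the separation of its CPM from the controls was not matched there. Tef at 4 Hz changed sign to -0.25, which is -0.03 relative to the median gene. Cry1 at 1 Hz was called on this scale, at -0.56, which is -0.40 relative to the median gene. Without the 3 libraries Clock at 1 Hz was at -0.46 and was not called, Per2 at 1 Hz was at 0.40 in place of 0.25 and Tef at 1 Hz at 0.06 in place of 0.10. With the TPM property of each library as a covariate Clock was at -0.39 at 1 Hz and -0.26 at 4 Hz and Cry1 at -0.23 at 4 Hz, none of them called. Every 4 Hz library lay below every control in this property. Neither leaving out the 3 libraries nor the covariate can therefore fully tell the property from the condition at 4 Hz. Nr1d1, Nr1d2 and Dbp were called at 1 and 4 Hz in all settings.

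The other clock genes were taken from 5 lists: activators, other repressors, other output genes, turnover and input pathways. Of 37 listed, 35 passed the filter, and Nr0b2 and Fbxl21 did not. The lists were chosen with earlier results of these data known, so the calls and adjusted p-values of these genes are descriptions. At 1 Hz, 6 rose and 3 fell, beside 7.19% and 7.74% of all tested genes. At 4 Hz, 7 rose and 5 fell, beside 12.8% and 12.3%. The numbers that fell were near these shares. At 10 Hz, 0 of 35 changed by edgeR or DESeq2, and 4 had an unadjusted p under 0.05. The median of the 35 differences was 0.05, 0.10 and 0.02 (log2) under 1, 4 and 10 Hz, against 0.04, 0.06 and 0.01 over all tested genes.

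Among activators, Bmal1 (listed as Arntl), the partner of CLOCK, was at -0.41 ± 0.11 at 1 Hz (adjusted p = 0.0049, under the threshold on size) and fell by 0.59 ± 0.11 at 4 Hz (adjusted p = 0.00012). It ran among controls from 14.8 to 18.5 CPM (median 16.7), under 1 Hz from 9.64 to 15.9 (median 12.9), under 4 Hz from 9.85 to 11.9 (median 11.2) and under 10 Hz from 10.96 to 15.8 (median 14.7). Of the ROR genes, whose products compete with the REV-ERB proteins, Rora rose by 0.91 ± 0.10 at 1 Hz and 0.87 ± 0.10 at 4 Hz (adjusted p = 3.5e-07 for both), and Rorb by 0.58 ± 0.18 and 0.84 ± 0.18 (adjusted p = 0.015 and 0.00056).

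Among repressors, Nfil3, which binds the D-box in competition with DBP and TEF, rose by 0.59 ± 0.14 at 1 Hz and 0.88 ± 0.14 at 4 Hz (adjusted p = 0.0018 and 1.6e-05). Ciart, a repressor of CLOCK and BMAL1, was at 0.47 ± 0.13 at 1 Hz and rose by 0.81 ± 0.13 at 4 Hz (adjusted p = 0.006 and 1.8e-05). Bhlhe40, or DEC1, which competes for the E-box, went the other way, with -0.90 ± 0.17 and -0.79 ± 0.17 (adjusted p = 0.00022 and 0.00046).

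Of the output genes, Noct, a deadenylase-like protein also called nocturnin, rose by 0.94 ± 0.13 at 1 Hz and 1.04 ± 0.13 at 4 Hz (adjusted p = 4.8e-06 and 6e-07). Usp2, a deubiquitinase, rose by 0.61 ± 0.11 and 0.75 ± 0.11 (adjusted p = 0.00013 and 5.8e-06), and Wee1, a cell cycle kinase with a clock-driven promoter, by 0.55 ± 0.11 and 0.72 ± 0.11 (adjusted p = 0.00025 and 6.1e-06). Hlf, the third PAR bZIP gene beside Dbp and Tef, was at -0.41 ± 0.24 and -0.36 ± 0.24 (adjusted p = 0.18 and 0.22) and did not pass the test. Side by side at 4 Hz, the log2 fold changes of the 3 PAR bZIP genes were 1.23 for Dbp, 0.14 for Tef and -0.36 for Hlf.

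Of the input and turnover genes, Crtc1, a coactivator of CREB, fell, with -0.90 ± 0.12 at 1 Hz and -1.02 ± 0.12 at 4 Hz (adjusted p = 3.6e-06 and 3.9e-07). Creb1 itself was at -0.55 ± 0.10 and -0.69 ± 0.10 (adjusted p = 0.00018 and 7.3e-06). Prkaa1, a catalytic subunit of AMPK, which marks cryptochromes for breakdown, was at -0.30 ± 0.08 and -0.57 ± 0.08 (adjusted p = 0.0063 and 5.7e-06), past the threshold on size only at 4 Hz.

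**Figure D3:**
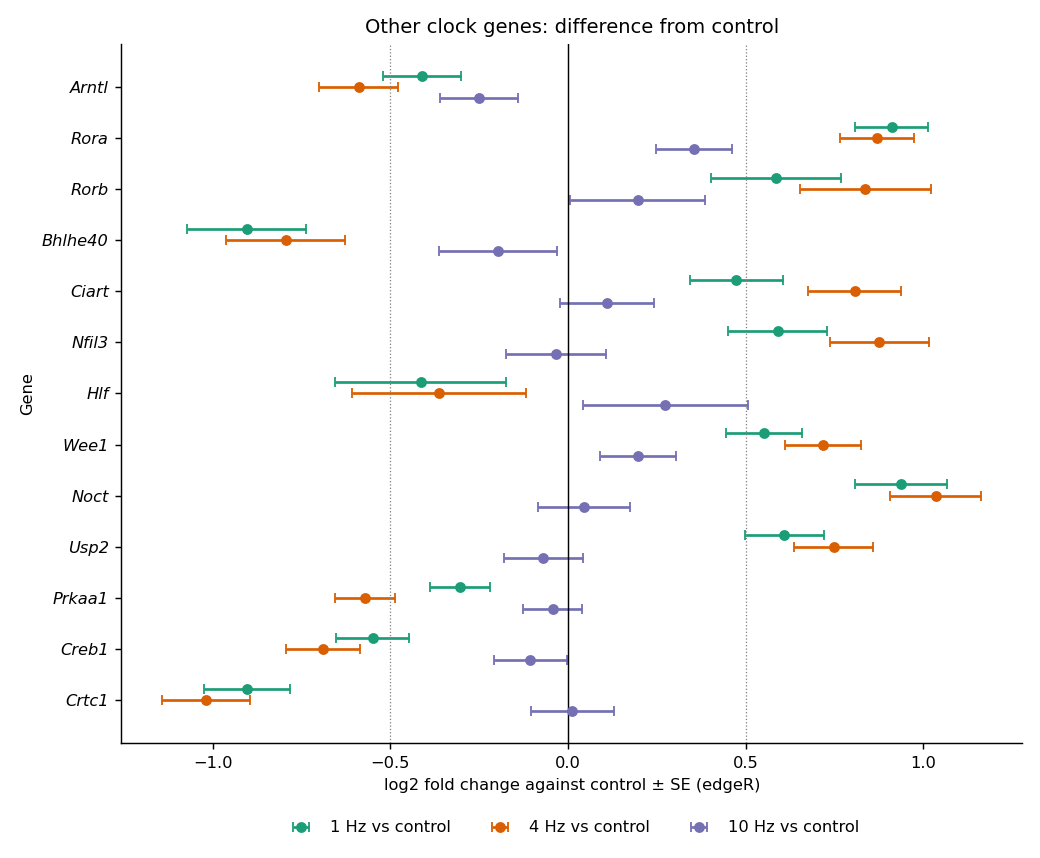
Log2 fold change against control with its SE from edgeR (horizontal axis) for 13 other clock genes (vertical axis) at 1, 4 and 10 Hz; dotted lines mark 0.5 in each direction, and Arntl is Bmal1. Rora, Rorb, Nfil3, Noct, Usp2 and Wee1 lie above 0.5 at both 1 and 4 Hz, and Bhlhe40, Creb1 and Crtc1 below -0.5.

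How the 10 genes varied among replicates of the same condition is a separate question from their differences between conditions. Whether the choice of the genes also drew on this variation is not known, so the permutation p-values of these genes are given as descriptions. Each condition's mean log2 CPM was subtracted, and all 45 pairs were compared over the 24 libraries by permuting libraries within conditions 100000 times. After adjustment over 45 pairs, 2 passed. Nr1d1 and Cry1 went in opposite directions, with Pearson r = -0.905 and Spearman rho = -0.858 (permutation p = 1e-05 for each, the smallest these permutations can give, adjusted p = 0.00045). The relation held within each condition, at r = -0.928, -0.920, -0.884 and -0.924 in the control, 1, 4 and 10 Hz libraries, and was -0.846 without the 2 libraries farthest from the median of Nr1d1. On log2(TPM + 1), where the library property above adds to all genes, r was -0.632 over all libraries, and -0.900, -0.528, -0.355 and -0.949 in the same 4 conditions. The TPM property itself had r = -0.914 with Nr1d1 and 0.898 with Cry1 in the controls, and -0.769 and 0.597 at 10 Hz. At 1 Hz these were -0.214 and 0.424, and at 4 Hz -0.0633 and 0.449. The part of this property in the pair was not tested. Genes outside the 10 also followed Nr1d1 within conditions, and some had a larger r in size, such as Rgs16 at 0.960. The share of all tested genes as strongly correlated with Nr1d1 as Cry1 was not counted.

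Single libraries show the relation of Nr1d1 and Cry1. Replicate 5 at 1 Hz had the lowest Nr1d1 of its condition (27.9 CPM) and the highest Cry1 (55.3 CPM). Replicate 2 at 10 Hz had the lowest Nr1d1 of all 24 libraries (14.1 CPM) and the highest Cry1 (65.0 CPM), and replicate 4 at 4 Hz had the highest Nr1d1 (172 CPM) and the lowest Cry1 (24.9 CPM). Cry1 is a textbook target of REV-ERBα, but whether REV-ERBα acted on Cry1 in these cells was not tested. The other E-box gene with a match close to its start, Per1, had r = 0.605 with Nr1d1 (permutation p = 0.0048, adjusted p = 0.072) and did not pass. Nr1d1 and its paralog Nr1d2 had r = 0.319 (permutation p = 0.14, adjusted p = 0.40).

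The second pair was Per2 and Clock, with r = 0.795 and rho = 0.746 (permutation p = 0.00021 and 0.0008, adjusted p = 0.0047 and 0.018). This pair was not seen in the controls, at r = -0.115, and was at 0.853, 0.921 and 0.859 at 1, 4 and 10 Hz, and it was 0.705 without the 2 libraries farthest from the median of Per2. Both genes also moved with the TPM property of the library within conditions. That correlation was 0.675 for Clock (rho = 0.745, permutation p = 0.0032 and 0.00026, adjusted over 10 genes p = 0.032 and 0.0026) and 0.549 for Per2 (rho = 0.573, permutation p = 0.0092 and 0.0054, adjusted p = 0.046 and 0.027), and for the other 8 genes the adjusted p of r was 0.064 or higher. Without the 2 libraries farthest from its median, it was 0.741 for Clock and 0.474 for Per2. On log2(TPM + 1), where the property adds to both genes, the r of Per2 with Clock was 0.907, and 0.127, 0.968, 0.958 and 0.909 in the control, 1, 4 and 10 Hz libraries. On log2 CPM, Nfya (0.913), Zfp469 (0.893) and B4galt5 (0.890), outside the 10, had a higher r with Per2 within conditions than Clock had.

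**Figure D4:**
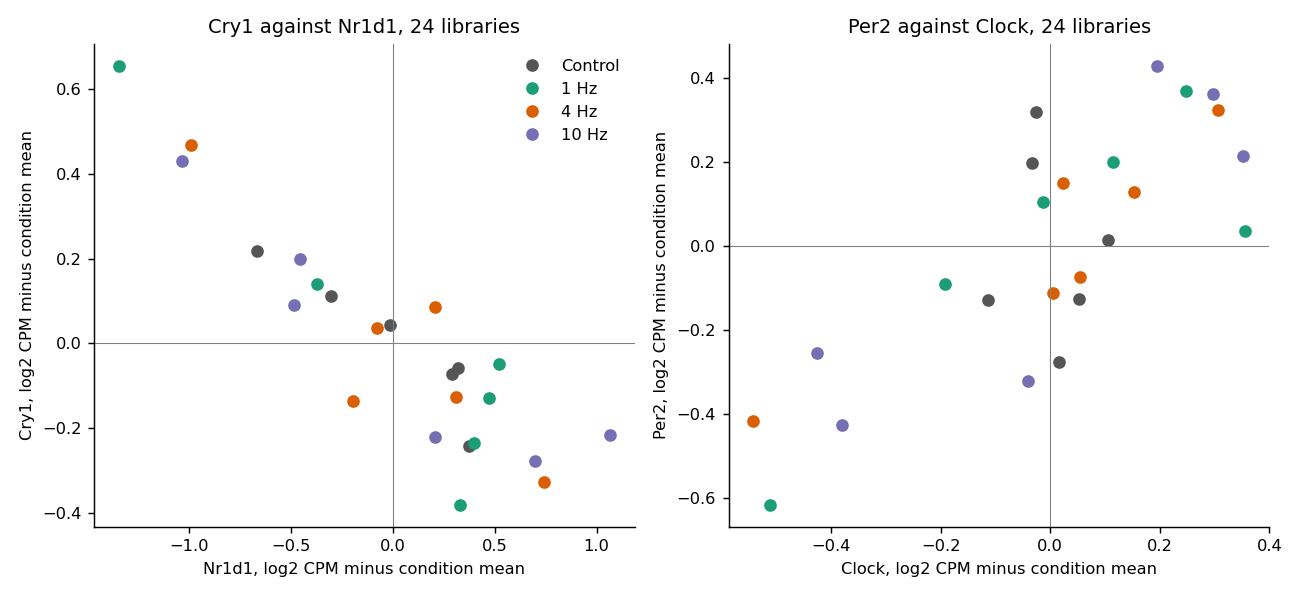
Each point is a library, as log2 CPM minus the mean of its condition, for Cry1 (vertical) against Nr1d1 (horizontal) on the left and Per2 (vertical) against Clock (horizontal) on the right, coloured by condition. The left cloud falls in all 4 conditions (r = -0.905) and the right one rises (r = 0.795) except in the controls.

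Nr1d1 was then set against the 35 other clock genes in the same way, a comparison added after the pair with Cry1 had been seen. After adjustment over 35 genes, 17 passed, 10 positive and 7 negative. The weakest of them had an r of 0.508 in size, and of all 13314 other tested genes 12.1% were as strongly positive and 14.4% as strongly negative, beside 28.6% and 20.0% of the 35, so correlations of this size with Nr1d1 were common across the tested genes. The strongest positive ones included Tsc22d3 (r = 0.863, rho = 0.821, permutation p = 2e-05 and 3e-05, adjusted p = 0.00035 and 0.0007), which encodes the glucocorticoid-induced protein GILZ. Noct (r = 0.860, rho = 0.776, permutation p = 3e-05 and 0.00025, adjusted p = 0.00035 and 0.0013) and the cyclic AMP and glucocorticoid responsive gene Sik1 (r = 0.833, rho = 0.821, permutation p = 7e-05 and 0.0001, adjusted p = 0.00041 and 0.00084) were close. Fkbp5, another glucocorticoid-induced gene, was at r = 0.716 (rho = 0.729, permutation p = 4e-05 and 5e-05, adjusted p = 0.00035 and 0.0007). Each of these 4 genes was positive within all 4 conditions, between 0.345 for Fkbp5 at 10 Hz and 0.972 for Tsc22d3 at 10 Hz. Without the 2 farthest libraries their r was 0.801, 0.793, 0.795 and 0.705 in the same order. Their differences from control did not share a direction. At 1 and 4 Hz, Fkbp5 was at -0.29 ± 0.09 and -0.32 ± 0.09 (edgeR adjusted p = 0.017 and 0.0074). Sik1 was at -0.06 ± 0.11 and 0.17 ± 0.11 (adjusted p = 0.68 and 0.21). Tsc22d3 was at 0.29 ± 0.11 and 0.35 ± 0.11 (adjusted p = 0.040 and 0.010).

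On the negative side, Hlf had r = -0.805 (rho = -0.737, permutation p = 4e-05 and 0.00012, adjusted p = 0.00035 and 0.00084) and Csnk2a1, a catalytic subunit of casein kinase 2, r = -0.806 (rho = -0.799, permutation p = 6e-05 and 6e-05, adjusted p = 0.00041 and 0.0007), and both were negative within every condition. Without the 2 farthest libraries they were at -0.664 and -0.730. Bmal1, the target for which the REV-ERB proteins are best known, gave r = 0.120 (rho = 0.188, permutation p = 0.65 and 0.44, adjusted p = 0.71 and 0.54), from 0.842 in the controls to -0.884 at 4 Hz. Nfil3, often listed as another REV-ERB target, was positive at r = 0.738 (rho = 0.693, permutation p = 0.0004 and 0.00094, adjusted p = 0.0017 and 0.0038, and 0.760 without the 2 farthest libraries). Genes of 1 library share its depth and preparation, so these values do not tell regulation between genes from a state that the library's cells shared.

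**Figure D5:**
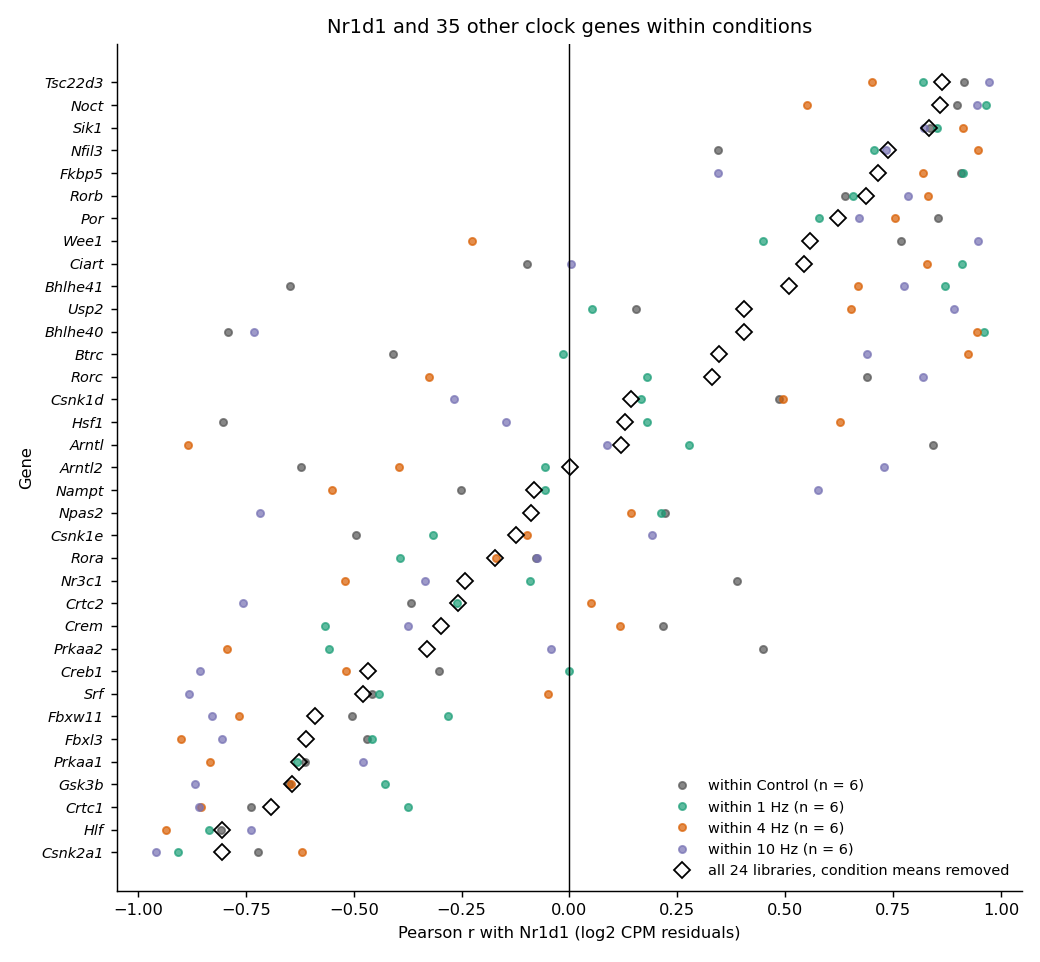
Pearson r with Nr1d1 (horizontal axis) for 35 other clock genes (vertical axis), after subtracting condition means from log2 CPM; diamonds are all 24 libraries and circles the 6 libraries of each condition. Circles of Sik1 and Rorb stay together on the right and those of Hlf on the left, while those of Bmal1 (Arntl) spread from -0.884 to 0.842.

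For likeness of pattern, the 3 non-member genes with the highest Pearson r of log2 CPM over the 24 libraries were taken for 4 of the genes, as a description. For Nr1d1 they were Ier5 (0.971), Plk2 (0.964) and Btg2 (0.963), which are known as genes induced early by serum or stress, and with condition means removed they were Rgs16 (0.960), Ier5 (0.954) and Pim1 (0.952). Ier5 ran among controls from 21.2 to 56.8 CPM (median 44.7), under 1 Hz from 32.8 to 135 (median 98.9), under 4 Hz from 60.4 to 151 (median 112) and under 10 Hz from 21.98 to 80.3 (median 38.9), so its libraries spread as widely as those of Nr1d1. For Dbp the genes were Nrbf2 (0.951), Cited2 (0.948) and Lims2 (0.944), and with condition means removed no gene exceeded 0.789 (Spire2, then Ppp1r37 at 0.783 and Washc1 at 0.761). Cited2 ran among controls from 70.1 to 99.6 CPM (median 84.4), under 1 Hz from 184 to 236 (median 212), under 4 Hz from 189 to 277 (median 219) and under 10 Hz from 73.9 to 105 (median 86.9). For Clock they were Smurf2 (0.969), Apc (0.969) and Pdzd8 (0.968), and Hipk3 (0.967), Btbd7 (0.965) and Kat6a (0.962) with means removed. For Per2 they were Mideas (0.834), Mtmr3 (0.833) and Aff1 (0.830), and Nfya (0.913), Zfp469 (0.893) and B4galt5 (0.890).

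Several of the 10 genes share exon bases with a gene on the opposite strand, and how counting used the strand is not stated. Thra, the thyroid hormone receptor gene, covers 52.3% of the exon bases of Nr1d1. Thra ran among controls from 81.8 to 99.7 CPM (median 89.4), under 1 Hz from 95.7 to 118 (median 104) and under 4 Hz from 94.5 to 135 (median 105), with log2 fold changes of 0.22 ± 0.08 and 0.28 ± 0.08, beside 1.43 and 1.92 for Nr1d1. Within conditions the r of Thra with Nr1d1 was 0.686, between 0.542 and 0.900 in the 4 conditions. On log2(TPM + 1) it was 0.303, and -0.0635, 0.291, 0.579 and -0.145 in the control, 1, 4 and 10 Hz libraries. Sphk2 covers 15.5% of Dbp and was at -0.40 ± 0.09 and -0.31 ± 0.09, the opposite direction to Dbp. Tmem165 covers 11.9% of Clock and was at -0.35 ± 0.11 and -0.66 ± 0.11, the same direction as Clock. Estimated counts of Nr1d1, Dbp and Clock were whole numbers in all 24 libraries. Those of Per1, Per3 and Tef were not whole in 3, 4 and 6 libraries. The part of the opposite-strand neighbours in the values of Nr1d1 and Clock was not tested. Smaller overlaps exist for Per1, Per3, Cry2 and Tef, of 11.1% or less of their exon bases, and no annotated gene overlaps Cry1.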

How the data were processed

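Paired-end libraries were made with a directional kit after poly(A) selection, and low-input samples, not named, were ribodepleted per the labels. The authors processed the reads with nf-core/rnaseq and deposited salmon estimated counts per gene, not normalized, and TPM per gene, scaled by the authors for length and library. The submitters' processing notes name STAR, Salmon, BWA 0.7.12-r1039 and bedtools 2.25.0, and the builds mm10, hg19 and GRCm39; the Ensembl GRCm39 annotation was used by the study's methods.

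Estimated counts were rounded, filtered by filterByExpr (minimum count 10, total 15) and scaled by TMM in edgeR 4.0.16 (R 4.3.3). A robust quasi-likelihood test was run in 1 fit of 24 libraries with Benjamini-Hochberg adjustment over 13315 genes. The biological coefficient of variation was 14.8%. On simulated data for 1 Hz against control, 94.9% of 99 genes with a log2 fold change of 1 and 0.0311% of 12866 unchanged genes were called. The simulation gave every gene the same dispersion and held no shift between libraries. Its shares therefore may not hold for more scattered genes such as Nr1d1 or for the shifted libraries. Alternatives used DESeq2 1.42.0, limma 3.58.1 on log2(TPM + 1) and log2(TPM + 0.1), other scalings and filters, and each library left out. The members and lists were chosen with earlier results of these data known. Named beside the 10 genes are Bmal1, Hlf, Nfil3 and other clock genes changed in any comparison with control, opposite-strand genes and the 3 most alike genes; clock genes named for their correlation with Nr1d1 (Tsc22d3, Sik1, Fkbp5, Csnk2a1) were chosen after their values were seen.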

Additional observations from a re-analysis of the deposited data

Results flagged for a closer look

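Of 40 groups of 6 libraries examined (10 genes in 4 conditions), 1 had a library far from the others. Clock in replicate 4 at 4 Hz, at 51.4 CPM, was the lowest of its condition, and its gap to the next library made up 0.645 of the range of log2 CPM, past Dixon's critical value for 6 samples. Chance alone flags about 1 in 20 such groups. The same library had the highest Nr1d1 of the series and the lowest Per2 and Cry1 of its condition.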

How the results depend on the processing

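Counts of changed genes kept within 1.5 times the reported count in 202 of 216 combinations of result and setting. On log2(TPM + 1) and on log2(TPM + 0.1), 5 of the 10 genes were changed at 4 Hz in place of 8, and 5 in place of 3 between 10 and 1 Hz. On log2(TPM + 1), 5 other clock genes changed at 1 Hz in place of 9. Without the threshold on size the 10 genes gave 7 at 1 Hz and 6 between 10 and 1 Hz, and other clock genes 18 at 1 Hz and 21 at 4 Hz, since a criterion was dropped. Leaving out each library gave 3 to 5 between 10 and 1 Hz, with 5 without replicate 3 or 5 at 1 Hz or replicate 2, 3 or 5 at 10 Hz. For the TPM scales and the libraries left out the cause was not tested.

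Single calls near the threshold also changed. Per2 at 4 Hz was lost with RLE size factors (0.49), without the low-count filter (0.47), with 2 groups in the fit (0.49), by DESeq2 (0.49), and without Control replicate 1 (0.49), 3 (0.45) or 6 (0.49) or 4 Hz replicate 1 (0.49), 2 (0.45) or 6 (0.49). Cry1 at 4 Hz was lost with upper-quartile factors (-0.49) and without Control replicate 3 (-0.49) or 4 Hz replicate 1 (-0.49) or 4 (-0.49). Cry2 at 4 Hz was gained with upper-quartile factors (0.53) and without Control replicate 1 (0.51) or 4 Hz replicate 5 (0.501) or 6 (0.501). Clock between 10 and 4 Hz was lost with upper-quartile factors (0.48) and without 4 Hz replicate 4 (0.45) or 10 Hz replicate 4 (0.46) or 6 (0.465), and with the TPM property as a covariate it was at 0.15.

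At 10 Hz, 3 genes with values near 0 changed sign. Crtc1 was at -0.0005918 on log2(TPM + 0.1), and with each library left out in turn it ran from -0.03791 to 0.08656. Nfil3 then ran from -0.1272 to 0.04246 and Noct from -0.02081 to 0.09796. The replicate numbers did not pair the samples: same-numbered libraries of different conditions had residual correlations of -0.332 to 0.242, 3 of 36 were over 0.1, and in 4 of the 36 pairs the library correlated best with its own number in the other condition. With the replicate number as a block the 10 genes gave 4, 8 and 0 changed genes at 1, 4 and 10 Hz, as without it, and 4 between 10 and 1 Hz, where Clock was added at 0.504. The settings with the TPM property of libraries were chosen after seeing the data. Depths of 8052369 to 18159144 counts and 6 libraries a condition limit what can be told from 0.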
